A study of Mus musculus with 6 samples.

Results

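The genes described here are 50 genes of proliferation and the cell cycle, taken by name from a list written for this work and looked up by Ensembl identifier among the 11234 genes measured. All 50 were found. They comprise 15 genes of S phase, 7 cyclins and kinases of G1, 23 mitotic genes, 3 inhibitors of cyclin-dependent kinases and 2 transcription factors. They were measured in MC3T3-E1, a preosteoblast cell line from mouse skull bone, at passage 4. Cells of both groups were held without serum for 24 h to synchronize them and then given complete medium with serum for 24 h. The control group (n = 3) received that medium without C3G, and the C3G group (n = 3) received it with 100 μmol/L cyanidin-3-O-glucoside, an anthocyanin pigment of berries. The paper's abstract calls the controls vehicle-treated, while its culture methods name no vehicle. The sample labels write the unit as μm/l. The series used 1 cell line at 1 passage, and the sample labels do not state whether the 3 libraries of a group came from independent experiments, so a p value measures only the spread between these libraries.

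Cells without serum leave the cycle and rest. When serum returns, D-type cyclins with CDK4 release the E2F factors, which turn on cyclin E, the licensing factors and the enzymes that copy DNA. Later the MuvB complex and FOXM1 turn on the genes of mitosis, whose mRNAs peak in G2 and M and are nearly absent from resting cells. Inhibitors of the CIP/KIP and INK4 families hold the kinases back. In an osteoblast lineage, proliferation of preosteoblasts precedes the exit from the cycle that goes with matrix maturation.

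Values are FPKM, fragments per kilobase of gene model and scaled to the number of mapped fragments, so levels can be compared between genes. The 6 libraries had a median FPKM of 5.80 to 7.40 over all genes. Control replicate 1 stood apart, since Pearson's r with the rest was 0.886 to 0.939 on log2(FPKM + 1), against 0.968 to 0.992 for pairs without it. Of 10 osteoblast lineage markers 9 were measured, led by *Col1a1*, and 0 of them passed the test between the groups. Their sums were 2501 to 7592 FPKM in control, highest in replicate 1, and 2527 to 3471 FPKM with C3G. Of the 5 macrophage markers *Lyz2* and *Cd68* were measured, and the other 3 were not analysed here. Their summed level was 32.3 to 41.0 FPKM in the control libraries and 45.8 to 55.5 FPKM in the C3G libraries. *Lyz2* made up nearly all of it (log2 difference 0.44, unadjusted p = 0.0315 by limma), and its part in the results below was not tested. The chondrocyte markers *Sox9* and *Col2a1* summed to 91.9 to 210.5 FPKM in control and 87.8 to 111.5 FPKM with C3G, and *Des* was the 1 muscle marker measured, at a mean of 1.01 FPKM. The listed adipocyte and endothelial markers were not analysed here.

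All 50 genes were measured above 0 in both groups. None of the 50 genes was listed at 0 in any library, and their values ran from 1.76 to 150.5 FPKM. The mean over the 6 libraries exceeded 10 FPKM in 44 of them and 50 FPKM in 16, and 20 ranked among the 1000 highest of all genes. Their median level was 39.9 FPKM, against 7.20 FPKM for all genes. The marker of proliferation *Mki67*, a coat protein of mitotic chromosomes (chromosome 7 of GRCm38, 135689784 to 135716361), had 34.6, 103 and 112 FPKM without C3G and 58.9, 92.8 and 128 FPKM with C3G, in the order of replicates 1, 2 and 3, which is kept for all genes. *Pcna*, the sliding clamp of DNA polymerases (chromosome 2, 132249162 to 132253314), had 29.4, 101 and 101 FPKM without C3G and 76.2, 106 and 92.7 FPKM with C3G. For both genes replicate 1 was the lowest library of its group, and the groups overlapped. In RNA from whole cultures, fewer cycling cells and less mRNA per cycling cell cannot be told apart.

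**Figure D1:**
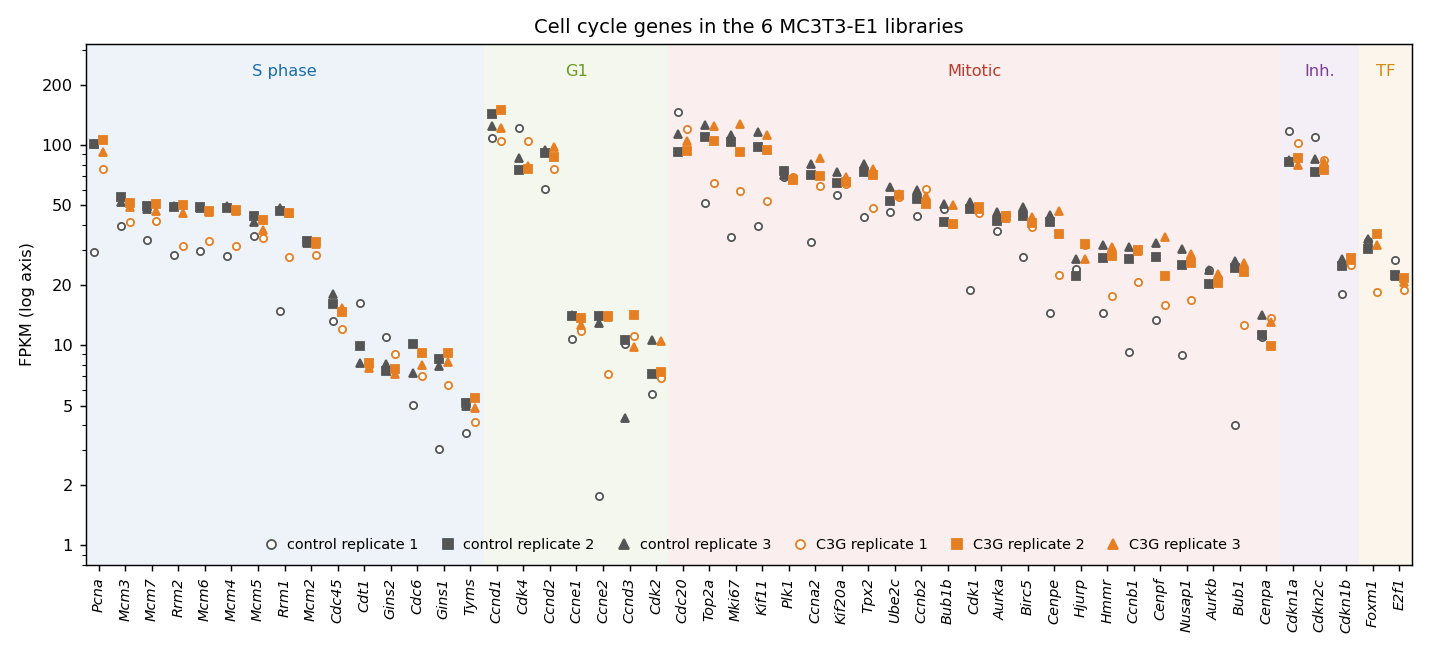
FPKM of the 50 genes (logarithmic axis) in each of the 6 libraries, ordered by mean level within each role; grey is control, orange is C3G, and open circles are replicate 1, squares replicate 2 and triangles replicate 3. Squares and triangles of both colours lie close together for nearly all genes, whereas the open circles of many mitotic and S phase genes lie below them; *Ccne2* in control replicate 1 is the lowest point, at 1.76 FPKM.

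Many of the 50 genes share short sequences at their start sites, which the list did not use. RefSeq windows of 300 bases (250 before and 50 after the start of the gene, build GRCm38.p6) were at hand for 39 of the 50 genes, 43 windows in all since *Ccnd3*, *Mcm7*, *Cdkn1a* and *Cdkn2c* have 2 each. The windows were searched on both strands for the E2F core (TTGGCGC or TTCCCGC or TTCGCGC), for the CHR element that the MuvB complex binds (TTTGAA or TTCGAA) and for the CCAAT box bound by NF-Y. The E2F core occurred in 8 of 13 windows of S phase genes and 4 of 19 of mitotic genes, against 8.07% of all 32851 windows. The CHR element occurred in 15 of 19 windows of mitotic genes and 3 of 13 of S phase genes, against 19.2% of all windows. CCAAT occurred in 17 of 19 mitotic and 10 of 13 S phase windows, against 37.4% of all windows. Of the 5 windows of G1 genes 1 had the E2F core, 0 the CHR element and 2 CCAAT, and the 5 windows of inhibitors gave the same counts. The 1 window of *E2f1* held 0 of the words. A match of letters is a description and does not show binding.

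The windows of 6 genes are shown, namely both proliferation markers and, in each of 4 roles, the gene with the smallest p value between the groups. All are written 5′ to 3′ on the strand of the gene, with every E2F, CHR and CCAAT match in capitals, in either orientation. *Mki67* (chr7:135716330-135716629, minus strand) holds 3 CCAAT boxes, 2 CHR words and 1 E2F core. *Pcna* (chr2:132253131-132253430, minus strand) holds 1 CCAAT box in the reverse orientation. *Hjurp* (chr1:88277530-88277829, minus strand) holds 1 CHR word, which starts 19 bases after the start base, and 1 CCAAT box in the reverse orientation. *Cdt1* (chr8:122567765-122568064, plus strand) holds 2 E2F cores, 18 and 33 bases after the start base. *Cdkn1b* (chr6:134920151-134920450, plus strand) holds 3 CCAAT boxes. *Ccnd3* (chr17:47504801-47505100, plus strand, the first of its 2 windows) holds 0 of these words.
Mki67: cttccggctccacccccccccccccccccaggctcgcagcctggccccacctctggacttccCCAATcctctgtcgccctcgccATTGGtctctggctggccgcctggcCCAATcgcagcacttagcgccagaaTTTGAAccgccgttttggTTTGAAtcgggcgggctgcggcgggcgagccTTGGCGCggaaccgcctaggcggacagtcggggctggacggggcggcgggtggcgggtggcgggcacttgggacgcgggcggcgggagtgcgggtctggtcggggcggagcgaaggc
Pcna: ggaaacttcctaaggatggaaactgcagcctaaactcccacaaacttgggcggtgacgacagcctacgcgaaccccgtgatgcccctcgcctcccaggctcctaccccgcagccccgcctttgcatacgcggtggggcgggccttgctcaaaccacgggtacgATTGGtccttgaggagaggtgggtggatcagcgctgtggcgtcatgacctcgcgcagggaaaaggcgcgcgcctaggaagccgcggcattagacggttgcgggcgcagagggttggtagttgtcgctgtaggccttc
Hjurp: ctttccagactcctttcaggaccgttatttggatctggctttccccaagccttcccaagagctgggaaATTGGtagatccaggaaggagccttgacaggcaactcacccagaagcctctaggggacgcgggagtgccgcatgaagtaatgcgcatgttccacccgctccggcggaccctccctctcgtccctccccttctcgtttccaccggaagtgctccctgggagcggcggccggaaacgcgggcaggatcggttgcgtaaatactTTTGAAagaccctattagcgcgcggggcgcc
Cdt1: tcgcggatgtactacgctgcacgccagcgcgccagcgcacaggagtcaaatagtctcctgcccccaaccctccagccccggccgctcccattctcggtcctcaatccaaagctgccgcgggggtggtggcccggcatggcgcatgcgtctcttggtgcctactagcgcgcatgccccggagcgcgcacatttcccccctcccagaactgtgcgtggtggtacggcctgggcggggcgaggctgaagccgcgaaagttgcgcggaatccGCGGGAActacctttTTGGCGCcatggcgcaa
Cdkn1b: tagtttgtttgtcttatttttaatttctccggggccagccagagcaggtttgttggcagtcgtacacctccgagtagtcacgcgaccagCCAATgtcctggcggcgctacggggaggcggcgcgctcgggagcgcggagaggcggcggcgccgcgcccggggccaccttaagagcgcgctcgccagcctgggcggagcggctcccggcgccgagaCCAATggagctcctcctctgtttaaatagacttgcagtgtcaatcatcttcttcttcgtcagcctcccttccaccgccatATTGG
Ccnd3: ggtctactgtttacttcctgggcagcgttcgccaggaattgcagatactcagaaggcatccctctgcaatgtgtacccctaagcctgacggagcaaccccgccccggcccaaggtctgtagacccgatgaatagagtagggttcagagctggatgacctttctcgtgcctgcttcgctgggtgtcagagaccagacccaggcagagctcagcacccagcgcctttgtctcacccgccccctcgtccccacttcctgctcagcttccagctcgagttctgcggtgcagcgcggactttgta

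C3G was compared with control to ask whether the treatment altered the cycle program. To be called, a gene needed a fold change of at least 1.2 and, with limma on log2(FPKM + 1) fitted to all genes, an unadjusted p (two-sided) under 0.05. Fold changes on this scale understate those of low genes. By this rule 0 of the 50 genes were called, where the background over all genes was 0.650% (73 of 11234). The count at an unadjusted limma p under 0.05 alone was also 0 of 50. After Benjamini-Hochberg adjustment over all genes 0 of 50 passed, as did 0% of all genes, and the smallest adjusted limma p among the 50 was 0.992. The differences ran from -0.42 for *Cdt1* to 0.55 for *Ccne2*. Of them 33 were above 0 and 17 below, where 6960 of 11234 were above 0 over all genes. Without control replicate 1, 9 of the 50 were above 0. With all 6 libraries the median of the 50 was 0.07, against 0.06 for all genes. Every library of one group lay above every library of the other in 3 of the 50 genes (*Hjurp*, *Plk1* and *E2f1*), where the share of all genes was 4.02%. In each of these 3 the two-sided exact permutation p was 0.1, the smallest that 3 libraries against 3 allow. The 95% confidence interval of the limma difference lay within 1 of 0 on the log2 scale, that is within a fold of 2, in 35 of 50 genes. Over all genes it did so in 8831 of 11234.

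**Figure D2:**
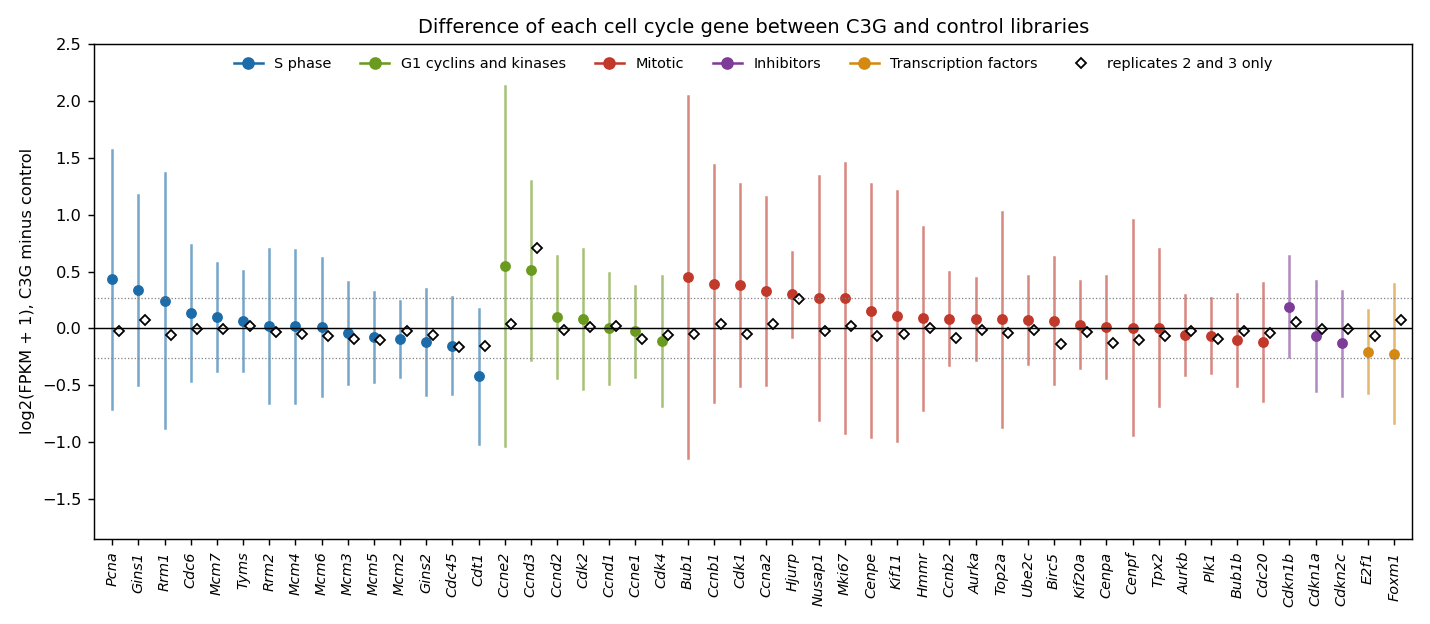
Difference of log2(FPKM + 1), C3G minus control, for each of the 50 genes, as filled circles with 95% confidence intervals from limma (3 libraries a group), and, as open diamonds, the difference with replicates 2 and 3 only; dotted lines mark a fold of 1.2. The intervals of all 50 genes cross 0, and the diamonds run from -0.16 to 0.70.

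In the S phase genes 0 of 15 were called, against 0.650% of all genes. Of the differences 9 were above 0 and 6 below. Their median was 0.02 and became -0.05 with median centring and -0.09 with a correction for GC content. The MCM2-7 helicase unwinds DNA at the replication fork. Its *Mcm3* subunit had 39.6, 55 and 52.1 FPKM without C3G and 41.3, 51.3 and 49.1 FPKM with C3G. *Mcm7* had 33.6, 49.7 and 47.8 FPKM and 41.7, 50.6 and 46.8 FPKM in the same order. The 6 subunits, with *Mcm4*, *Mcm5* and *Mcm6* among them, had mean levels between 31.0 and 48.9 FPKM in both groups, and their differences ran from -0.09 (*Mcm2*) to 0.10 (*Mcm7*). *Rrm2*, the S phase subunit of ribonucleotide reductase, had 28.3, 49.04 and 49.4 FPKM without C3G and 31.3, 50.1 and 46.04 FPKM with C3G. Its partner *Rrm1* had 14.8, 46.6 and 48.7 FPKM and 27.5, 45.8 and 45.7 FPKM. In both subunits replicates 2 and 3 of the groups were alike and replicate 1 was low in both groups.

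*Cdt1* loads the helicase onto origins and is destroyed once S phase starts. It had 16.2, 9.91 and 8.15 FPKM without C3G and 7.92, 8.18 and 7.74 FPKM with C3G. Its difference of -0.42 had a standard error of 0.25 and a 95% interval of -1.01 to 0.17 (unadjusted limma p = 0.137, exact permutation p = 0.2). Values of the groups overlapped, and control replicate 1 stood above the other 5 libraries; without it the difference was -0.16. *Cdc6*, the other loading factor, had 5.01, 10.1 and 7.29 FPKM without C3G and 7.06, 9.17 and 7.93 FPKM with C3G. *Cdc45*, *Gins1* and *Gins2*, which join the helicase to make it active, had differences of -0.15, 0.33 and -0.12. Without control replicate 1 these were -0.26, -0.06 and 0.03. *Tyms*, thymidylate synthase, was the lowest of the S phase genes, with group means of 4.57 FPKM in control and 4.81 FPKM with C3G.

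In the G1 cyclins and kinases 0 of 7 were called, against 0.650% of all genes. Of the differences 4 were above 0 and 3 below. Their median of 0.08 became -0.00 with the correction for GC content and -0.10 without control replicate 1. *Ccnd1*, cyclin D1, was the highest of all 50 genes (rank 271 of all genes), with 108, 144 and 124 FPKM without C3G and 104, 150.5 and 122 FPKM with C3G. Its difference was -0.00 with a 95% interval of -0.49 to 0.48. *Ccnd2* had 60.03, 91.2 and 94.8 FPKM and 75.9, 87.1 and 97.6 FPKM, and the kinase *Cdk4* had 122, 75.3 and 85.96 FPKM and 105, 75.8 and 78.4 FPKM, in the same order. *Ccne1*, which with CDK2 starts S phase, had 10.8, 14.02 and 14.2 FPKM without C3G and 11.8, 13.7 and 12.6 FPKM with C3G. The second cyclin E gene, *Ccne2*, had 1.76, 14.1 and 12.99 FPKM and 7.19, 14.1 and 13.8 FPKM. Its difference of 0.55 was the largest of the 50, with a 95% interval of -1.03 to 2.13. Without control replicate 1, whose value was far under the other 5, the difference was -0.25. The kinase *Cdk2* was the lowest of the G1 genes, with group means of 7.83 ± 2.52 FPKM (SD, n = 3) in control and 8.24 ± 1.94 FPKM (SD, n = 3) with C3G and a difference of 0.08.

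*Ccnd3*, the third cyclin D (chromosome 17, 47505051 to 47599691), was the G1 gene with the smallest p value. It had 10.1, 10.7 and 4.32 FPKM without C3G and 11.1, 14.2 and 9.85 FPKM with C3G. Each C3G library was above the control library of the same number, by 0.12, 0.38 and 1.03 on the log2 scale for replicates 1, 2 and 3. Of the 50 genes, 4 were higher with C3G in all 3 pairs and 7 were lower in all 3. Control replicate 3 was the lowest library of *Ccnd3*. The difference was 0.51 (standard error 0.33, 95% interval -0.28 to 1.30, unadjusted limma p = 0.169, exact permutation p = 0.3). Without control replicate 3 it was 0.14. With the replicate number as a block, 0 of the 50 genes were called, against 1.50% of all genes, and the p value of *Ccnd3* was 0.0603. With the block together with the correction for GC content, *Ccnd3* was the 1 gene of 50 that was called, against 2.19% of all genes (log2 difference 0.57, unadjusted limma p = 0.0217, adjusted limma p = 0.785, beside the exact permutation p of 0.3 on the values as deposited). Exons of *Ccnd3* overlap those of *Bysl* on the opposite strand, and how the authors used strand in counting is not given in the sources used here.

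In the mitotic genes 0 of 23 were called, against 0.650% of all genes. Of their differences 19 were above 0 and 4 below. Over all genes 6960 of 11234 differences were above 0. The median of the mitotic genes, 0.08, became -0.01 with the correction for GC content and -0.08 without control replicate 1. *Cdc20*, which activates the anaphase-promoting complex, had the highest mean of them over the 6 libraries, with 146, 92.01 and 113 FPKM without C3G and 120.5, 93.3 and 105 FPKM with C3G. In replicates 2 and 3 its mean was below those of *Top2a*, *Mki67* and *Kif11* in both groups. *Top2a*, the topoisomerase that untangles sister chromatids, had 51.5, 109 and 126 FPKM and 64.5, 105 and 125 FPKM. The spindle motor *Kif11* had 39.4, 97.9 and 116 FPKM without C3G and 52.9, 94.6 and 112 FPKM with C3G. In *Top2a* and *Kif11* the lowest library was control replicate 1 and the next lowest C3G replicate 1, whereas in *Cdc20* these were the highest libraries.

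The kinase *Cdk1* and its cyclins *Ccna2*, *Ccnb1* and *Ccnb2* drive entry into mitosis. *Cdk1* had 18.9, 48.2 and 51.95 FPKM without C3G and 45.7, 48.96 and 47.9 FPKM with C3G, so that 5 libraries lay between 45.7 and 52.0 FPKM and control replicate 1 apart from them. The differences of *Cdk1*, *Ccna2* and *Ccnb1* were 0.38, 0.33 and 0.39, and without control replicate 1 they were -0.07, -0.06 and -0.12. That of *Ccnb2* was 0.08. The checkpoint kinase gene *Bub1* had 4.01, 24.2 and 26.5 FPKM without C3G and 12.7, 23.3 and 25.7 FPKM with C3G, while its relative *Bub1b* had 47.9, 41.1 and 51.02 FPKM and 40.2, 40.3 and 50.3 FPKM. The kinases *Aurka* and *Aurkb* differed by 0.08 and -0.06, and *Birc5*, the partner of Aurora B, by 0.07. The remaining spindle and kinetochore genes *Tpx2*, *Kif20a*, *Cenpe*, *Cenpf*, *Nusap1* and *Hmmr* and the ubiquitin enzyme *Ube2c* had differences between 0.01 and 0.27, all with unadjusted limma p values of at least 0.569. Without control replicate 1 the differences of these genes ran from -0.36 (*Cenpf*) to -0.02 (*Ube2c*). *Cenpa*, the histone H3 variant of centromeres, was the lowest mitotic gene, with group means of 12.1 ± 1.76 FPKM (SD, n = 3) in control and 12.2 ± 1.99 FPKM (SD, n = 3) with C3G.

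*Hjurp* is the chaperone that deposits CENP-A at centromeres (chromosome 1, 88262471 to 88277633), and it had the smallest p value of the 50 genes. It had 23.99, 22.2 and 26.8 FPKM without C3G and 31.8, 32.02 and 26.9 FPKM with C3G. All C3G libraries were above all control libraries, but control replicate 3 and C3G replicate 3 nearly touched. The difference was 0.30 with a standard error of 0.16 and a 95% interval of -0.07 to 0.68 (unadjusted limma p = 0.0974, adjusted limma p = 0.992, exact permutation p = 0.1). Leaving out single libraries kept it between 0.24 and 0.38, and it was 0.25 with the correction for GC content. It was called in 0 of the 15 alternatives tried here. *Cenpa*, whose protein *Hjurp* carries, differed by 0.01.

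The polo-like kinase *Plk1*, which acts from mitotic entry to cytokinesis, had 69.2, 74.03 and 70.8 FPKM without C3G and 69.1, 66.9 and 68.6 FPKM with C3G. Its groups did not overlap, with every C3G library under every control library, but the difference was -0.06 (95% interval -0.39 to 0.26, unadjusted limma p = 0.659, exact permutation p = 0.1). Of the 2 transcription factors, *E2f1* had 26.6, 22.6 and 22.1 FPKM without C3G and 18.9, 21.8 and 20.7 FPKM with C3G. Its difference was -0.20 (95% interval -0.57 to 0.16, unadjusted limma p = 0.226, exact permutation p = 0.1) and -0.07 with replicates 2 and 3 only. *Foxm1* had 33.3, 30.1 and 33.9 FPKM without C3G and 18.6, 35.8 and 31.7 FPKM with C3G. C3G replicate 1 was the low library of *Foxm1*, and without it the difference moved from -0.22 to 0.05. Exons of *Foxm1* overlap those of *Gm44596* and *Tex52* on the same strand, as do those of *Mcm7* with *Mir25* and *Mir93* and those of *Top2a* with *Gm23451*.

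None of the 3 inhibitors was called, against 0.650% of all genes. *Cdkn1a*, which encodes p21 and is raised by p53, was the highest, with 117, 82.1 and 84.7 FPKM without C3G and 103, 86.7 and 79.7 FPKM with C3G. *Cdkn2c*, the INK4 inhibitor p18 and itself an E2F target, had 110.2, 72.99 and 84.9 FPKM without C3G and 83.9, 75.2 and 82.02 FPKM with C3G. *Cdkn1b*, which encodes p27, the inhibitor of resting cells, had 18.1, 24.97 and 26.9 FPKM and 25.2, 27.4 and 26.7 FPKM in the same order. The groups overlapped in all 3 genes. The differences were -0.07, -0.13 and 0.19, with 95% intervals of -0.55 to 0.42, -0.59 to 0.33 and -0.25 to 0.63. Without control replicate 1 the differences were 0.10, 0.03 and 0.03.

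A further 90 genes of the cell cycle were listed, of which 88 were measured (*Cdkn1c* and *Cdkn2b* were not analysed here). They include origin factors, polymerases, kinetochore proteins, condensins, further E2F factors and inhibitors. With limma 0 of the 88 were called, 0 had an unadjusted p under 0.05, and their median difference was 0.07, where 0.650% of all genes were called and their median was 0.06. The median of the 88 became -0.03 with the correction for GC content and -0.05 with replicates 2 and 3 only. The groups overlapped in all 88, against 4.02% of all genes without overlap. The smallest limma p, 0.1097, belonged to *Fen1*, the flap endonuclease of lagging-strand synthesis, with a difference of -0.67. It had 34.1, 18.3 and 48.6 FPKM without C3G and 14.5, 22.8 and 21.5 FPKM with C3G, and was called without control replicate 2 (-1.04). Without control replicate 3 the difference was -0.36, and with replicates 2 and 3 only it was -0.42.

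The largest differences among the 50 genes lay between replicates of the same group, down to -2.39 for *Ccne2* in control replicate 1 against control replicates 2 and 3. In control replicate 1, 38 of the 50 genes were under the mean of control replicates 2 and 3 on the log2 scale (median -0.46), and in C3G replicate 1, 39 were under that of C3G replicates 2 and 3 (median -0.25). Over all genes these medians were -0.20 and 0.01. Both replicate 1 libraries were the lowest 2 of the 6 in 31 of the 50 genes. The departure was set against the GC content and the length of the longest transcript. Across the 50 genes Spearman's rho with GC content was 0.876 in control replicate 1 and 0.724 in C3G replicate 1, and across all genes it was 0.748 and 0.631. With transcript length rho was -0.303 and -0.447 across the 50 genes and -0.244 and -0.387 across all genes. Genes share libraries and are not independent, so these are descriptions.

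**Figure D3:**
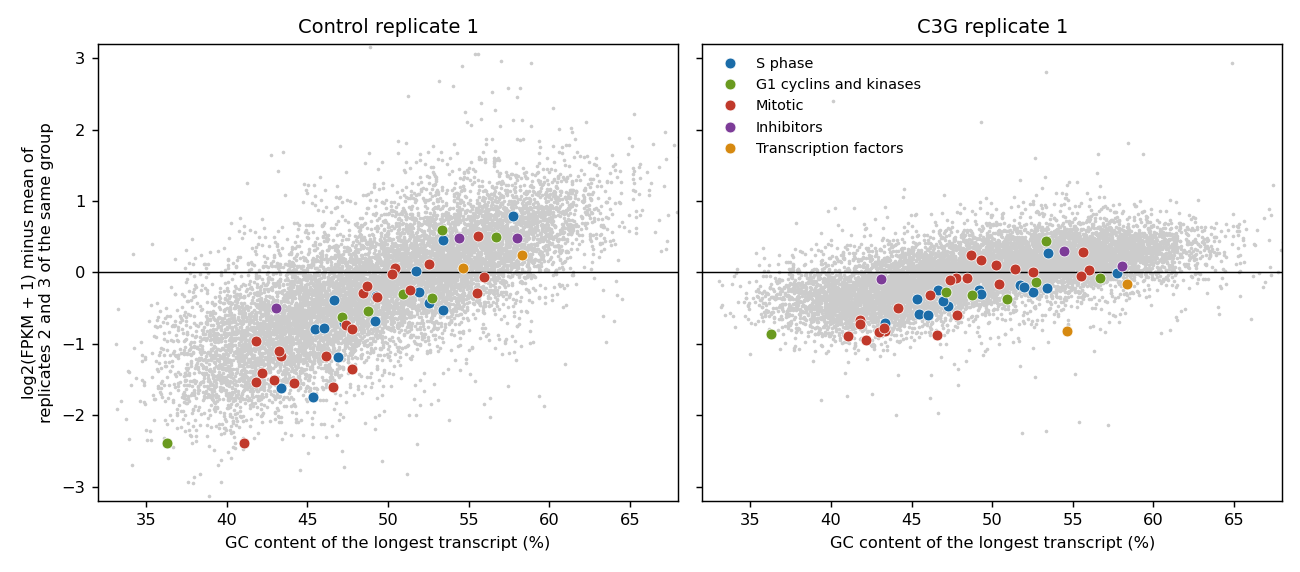
Departure of replicate 1 from the mean of replicates 2 and 3 of its group, in log2(FPKM + 1), against the GC content of the longest transcript in percent, for control (left) and C3G (right); grey points are all genes within the axes and coloured points the 50 genes by role. In both panels the coloured points climb with GC content, with a rho of 0.876 in control replicate 1 and 0.724 in C3G replicate 1.

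The ratios to the other replicates are given by GC content. In the 11 genes under 45% GC, control replicate 1 had a median of 0.337 times the mean of control replicates 2 and 3, with a range from 0.130 for *Ccne2* to 0.698 for *Cdkn1b*. In the 7 genes at 55% GC and over, the median ratio was 1.35, with a range from 0.812 for *Ube2c* to 1.79 for *Cdt1*. In C3G replicate 1 the median ratios of these 2 sets were 0.561 and 0.995. *Bub1* (41.0% GC) had 0.158 times the level of the other control libraries in control replicate 1, and *Cdc20* (55.6% GC) had 1.43 times. After the correction for GC content the median departure of the 50 genes in control replicate 1 was -0.27, against -0.00 for all genes. In C3G replicate 1 it was -0.29, against -0.00. The correction is fitted to all genes, so their medians near 0 follow from it. Before the correction the medians were -0.46 against -0.20 in control replicate 1 and -0.25 against 0.01 in C3G replicate 1. The part of RNA quality or of library preparation in these departures was not tested.

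With replicates 2 and 3 only (n = 2 in each group), the comparison was made again. The ratio of mean FPKM, C3G over control, had a median of 0.980 over the 50 genes and lay within a fold of 1.2 in 48 of them, the exceptions being *Ccnd3* (1.60) and *Hjurp* (1.203). For *Mki67* the ratio was 1.03 and for *Pcna* 0.985. In S phase genes it ran from 0.882 (*Cdt1*) to 1.06 (*Gins1*) and in the 3 inhibitors from 0.996 to 1.04. Of the 50 differences 13 were above 0, as were 5059 of 11234 over all genes, and 0 of the 50 were called with limma, against 1.70% of all genes. The 95% interval lay within 1 of 0 on the log2 scale in 49 of the 50 genes, *Ccnd3* being the exception. Over all genes it did so in 10970 of 11234.

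Replicates 2 and 3 were also compared within each group. Of the 23 mitotic genes, 18 were higher in replicate 3 than in replicate 2 in both groups and 0 were lower in both. Of the 15 S phase genes, 1 was higher in both groups (*Cdc45*) and 9 were lower in both. Over all genes 32.2% were higher in both and 31.2% lower in both. From replicate 2 to replicate 3 *Cenpf* went from 27.6 to 32.4 FPKM without C3G and from 22.2 to 34.9 FPKM with C3G. *Cdc6* showed the other order, from 10.1 to 7.29 FPKM and from 9.17 to 7.93 FPKM. Across the 50 genes, Spearman's rho between the difference in control and that in C3G was 0.694, and across all genes it was 0.365. Within the 23 mitotic genes it was 0.266 and within the 15 S phase genes 0.582.

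**Figure D4:**
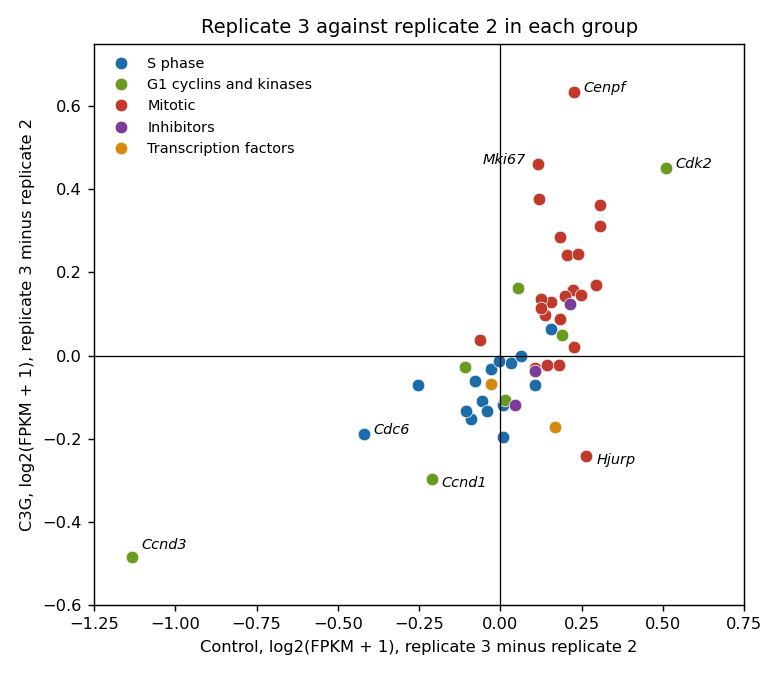
Difference between replicate 3 and replicate 2 in log2(FPKM + 1), for control libraries (horizontal) and C3G libraries (vertical), with 1 point for each of the 50 genes, coloured by role. Of the 23 mitotic genes 18 lie at the upper right, 9 of the 15 S phase genes lie in the lower left, and *Hjurp* lies in the lower right.

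Mitotic and S phase mRNA were also summed in each library, without a correction for GC content. The summed FPKM of the 23 mitotic genes of replicates 1, 2 and 3 was 819.9, 1193 and 1352 without C3G and 998.4, 1167 and 1328 with C3G. The sum of the 15 S phase genes was 323.6, 532.7 and 525.7 in the controls and 391.9, 527.4 and 494.7 with C3G. Mitotic over S phase sums were 2.53, 2.24 and 2.57 in the controls and 2.55, 2.21 and 2.68 with C3G, so the lowest ratio of each group was that of replicate 2. The sums weight the high genes most. Gene by gene, control replicate 1 departed from control replicates 2 and 3 by a median of -0.80 in mitotic and -0.53 in S phase genes. For C3G replicate 1 these medians were -0.16 and -0.27. Across the 50 genes, the departures of libraries from their group means correlated between same-numbered libraries (Pearson's r 0.777, 0.671 and 0.755 for replicates 1, 2 and 3). Between control and C3G libraries with different numbers r ranged from -0.731 to 0.474. It was 0.474 for control replicate 2 with C3G replicate 3 and 0.22 for control replicate 3 with C3G replicate 2. Departures within a group cancel, so these r values are not independent of each other.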

How the data were processed

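RNA-seq libraries of 6 samples were measured, and the deposited values are FPKM per gene, which the authors calculated with the Ballgown package after read checks with FastQC. The submitters' processing notes also name cutadapt, HISAT2 2.1.0, StringTie and STAR 2.5.2b, and the human build hg19, although the gene identifiers are mouse. The deposited tables hold 11234 genes, each with a larger group mean of at least 0.500 FPKM, and no read counts, so the depth is unknown and no counting interval is given. Symbols, positions, overlaps and GC content of the longest transcript came from GENCODE M21 (GRCm38) for 11211 genes.

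Groups were taken from the sample labels. C3G was compared with control on log2(FPKM + 1) with limma 3.58.1 (R 4.3.3), with eBayes and a mean-variance trend, no filter and Benjamini-Hochberg adjustment over all genes. Exact permutation tests were two-sided. Motifs and summaries were computed with Python 3.11.15, scipy 1.17.1, numpy 2.4.6 and pandas 2.3.3. The fit was tested on simulated data. The 50 genes, the further list, the markers and the motifs were chosen with earlier results of these data known. Values in every library are given for genes that were called or whose groups did not overlap, for the 4 highest genes of each role, and for inhibitors and factors; other genes with values in every library were chosen after their values were seen. Replicate numbers in the sample titles were used to pair the libraries, although the labels do not state a pairing. Over all genes, departures from group means correlated for every number (r 0.653, 0.580 and 0.440). They also correlated between control replicate 2 and C3G replicate 3 (r 0.307) and between control replicate 3 and C3G replicate 2 (r 0.300). Departures within a group cancel, so these r values are not independent of each other. The 15 alternatives changed the pseudocount (0.1), a filter (mean FPKM of at least 1), the trend, the scaling (quantile normalization, median centring), the GC content (natural spline of 5 df for each library), the replicate block, both of these, or the libraries used.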

Additional observations from a re-analysis of the deposited data

How the results depend on the processing

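The count of 0 called among the 50 genes held in 14 of the 15 alternatives, including with each library left out in turn (0 to 0), and *Ccnd3* was the 1 gene called with the GC correction and the replicate block together. The replicate block alone called 0 of the 50 genes and 0 of the 88 further genes, and so changed no other call in these lists. Over all genes 73 were called. That count was 169 with the replicate block, 135 with the GC correction, 246 with the GC correction and the replicate block, 191 with replicates 2 and 3 only, and 40 to 144 with each library left out in turn (144 without control replicate 1, 127 without control replicate 2, 45 without C3G replicate 1, 40 without C3G replicate 2 and 43 without C3G replicate 3). The split of higher and lower calls was 45 and 28, but 30 and 30 with quantile normalization, 67 and 68 with the GC correction, and 88 and 103 with replicates 2 and 3 only. The causes were not tested. Of the 88 further genes, 1 was called with the GC correction and the replicate block (*Ung*, -0.40), 2 with replicates 2 and 3 only (*Orc6*, -0.37, and *Prc1*, -0.44), and 0 to 2 with each library left out in turn: *Orc6* and *Prc1* without control replicate 1, *Fen1* (-1.04) without control replicate 2 and *Ccng2* (0.52) without control replicate 3.

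None of the differences of the 50 genes passed the test, so a change of sign in them is a change in an uncertain value. Signs changed in 34 of 50 genes without control replicate 1, in 24 with replicates 2 and 3 only, in 14 with the GC correction, in 7 with median centring and in 5 with quantile normalization. When single libraries were left out, the median difference ran from -0.16 to 0.17 in S phase genes, from -0.10 to 0.19 in G1 genes (lowest without control replicate 1) and from -0.08 to 0.27 in mitotic genes. The median standard error of the 50 differences was 0.24 on the log2 scale, 0.14 with the replicate block, 0.10 with the GC correction and the replicate block, and 0.09 with replicates 2 and 3 only.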
